A study of Mus musculus with 5 samples.

Results

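Antigen presentation by the major histocompatibility complex (MHC) was followed through 10 genes, each taken from the deposited tables by its symbol, out of 14161 genes listed in any library. The 4 class I genes were B2m, H2-K1, H2-D1 and Tap1, and the 6 class II genes were H2-Aa, H2-Ab1, H2-Eb1, H2-DMa, Cd74 and Ciita. All 4 class I genes and 5 of the class II genes were listed, and H2-Eb1 was listed in no library. The cells were bone mesenchymal stem cells, adherent stromal cells grown from the femur marrow of C57BL/6 mice 6 to 8 weeks old, in α-MEM with 12% serum, at passages 1 to 3. Of the 5 total RNA libraries, 3 came from Bmal1-knockout cells (Bmal1-/-) and 2 from wild type cells. Bmal1, whose gene symbol in the tables is Arntl, encodes a transcription factor of the circadian clock. How the allele was made, how many animals were used and whether the libraries came from separate cultures are details that the sources used here do not state; p-values therefore measure the spread between these libraries, which may be technical.

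MHC class I molecules sit on nearly all nucleated cells and show peptides from inside the cell to CD8+ T cells. Each is a heavy chain, encoded in C57BL/6 mice by H2-K1 or H2-D1, paired with the light chain β2-microglobulin, and it is loaded in the endoplasmic reticulum with peptides that the TAP transporter brings in. MHC class II molecules show peptides from endosomes to CD4+ T cells, and are made mainly by dendritic cells, B cells and activated macrophages under the control of the transactivator CIITA. Interferon-γ raises both classes.

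The libraries held 226695, 237088 and 281990 expected counts in Bmal1-/- cells, against 243072 and 211623 in wild type cells. Levels of a gene across libraries are given as CPM (counts scaled to a common total of tested genes), and levels compared between genes as the deposited FPKM, which also divides by gene length. Where a library had no count of a gene, its level could still reach the equivalent of 3 counts, which was 12.1 to 15.9 CPM by library and covers counting error only. Arntl itself had 4, 1 and 2 counts in Bmal1-/- cells, against 5 and 0 in wild type cells, too few to check the genotype labels. Of 14 macrophage markers, all were listed, 12 were tested and 7 were lower in the knockout; they summed to 9322 to 10661 CPM in the knockout and 14967 to 15241 CPM in the wild type libraries. Of 11 stromal markers 7 were tested and 3 were higher. The 11 summed to 5495 to 5967 CPM in the knockout and 2213 to 2232 CPM in the wild type. Most of that sum came from the 3 called genes in every library. The other 4 tested did not pass, and 2 of them had negative log2 fold changes, so the rise was not shared by all stromal markers. Among all tested genes 8.14% were called lower and 8.19% higher. The macrophage sum exceeded the stromal sum in every library, although the cells are labelled as mesenchymal. The macrophage gene Lyz2 alone had 6532 to 7091 CPM in the knockout and 10582 and 10951 CPM in the wild type. In CPM the order of the 2 sums rests on Lyz2 in the knockout but not in the wild type. In FPKM the macrophage sum was 4779 to 5731 and the stromal sum 897 to 1001 in the knockout. In such bulk RNA, fewer cells of a type and less RNA per cell cannot be told apart.

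The class I structural genes were abundant and lower in the knockout libraries, whereas class II transcripts were at or near the counting limit in both genotypes. B2m was 1.45-fold, H2-K1 1.48-fold and H2-D1 1.39-fold lower in the knockout, and all 3 passed the test (edgeR's quasi-likelihood test, Benjamini-Hochberg adjusted p under 0.05). Tap1 did not pass, and no class II gene reached the counts needed for testing. The 3 calls among 4 tested class I members stand beside a background of 8.14% of the 3710 tested genes called lower and 8.19% called higher.

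B2m (Entrez gene 12010, chromosome 2, 122147687 to 122153082, mm10) encodes β2-microglobulin, the light chain shared by all classical class I molecules. It had 913, 746 and 898 CPM in Bmal1-/- cells, against 1381 and 1084 CPM in wild type cells. Every knockout library lay below both wild type libraries, and the wild type libraries differed from each other by more than the knockout ones did. Its level averaged 852 ± 92.2 CPM in the knockout (SD, n = 3) and 1233 ± 210 CPM in the wild type (SD, n = 2), a log2 fold change of -0.53 (SE 0.13; edgeR adjusted p = 0.000546). Without wild type 1, the library with the highest value, the log2 fold change was -0.36 and the call was lost (edgeR adjusted p = 0.274).

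H2-K1 (Entrez gene 14972, chromosome 17, 33996012 to 34000619) encodes the heavy chain of the K molecule. Its level was 577, 627 and 554 CPM in Bmal1-/- cells, against 860 and 877 CPM in wild type cells. The groups did not overlap, and the distance between them was larger than the range within either. The means were 586 ± 37.5 CPM in the knockout (SD, n = 3) and 868 ± 12.2 CPM in the wild type (SD, n = 2), a log2 fold change of -0.57 (SE 0.14; edgeR adjusted p = 0.00104). Without wild type 2 the adjusted p of edgeR was 0.0634 at a log2 fold change of -0.56.

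H2-D1 (Entrez gene 14964, chromosome 17, 35263094 to 35267497) encodes the heavy chain of the D molecule. It had 562, 604 and 680 CPM in Bmal1-/- cells, against 860 and 861 CPM in wild type cells. All knockout values were again below both wild type values, which were almost equal. The means were 615 ± 59.7 CPM in the knockout (SD, n = 3) and 860 ± 0.896 CPM in the wild type (SD, n = 2), a log2 fold change of -0.48 (SE 0.14; edgeR adjusted p = 0.00752). This call was the least firm of the 3. It was lost without knockout 2 (-0.46, edgeR adjusted p = 0.0519), without wild type 1 (-0.50, 0.122) and without wild type 2 (-0.48, 0.132), and also with DESeq2 (-0.47, adjusted p = 0.0550) and with no filter on low counts (-0.45, adjusted p = 0.0701). Over all tested genes, every knockout value lay below every wild type value in 21.6%, and 3 of the 4 class I members were among them.

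Tap1 (Entrez gene 21354, chromosome 17, 34187556 to 34197225) encodes a subunit of the transporter that carries peptides into the endoplasmic reticulum. Its counts were 18, 9 and 21 in Bmal1-/- cells, against 10 and 12 in wild type cells. Scaled, they were 86.5, 42.8 and 85.0 CPM in Bmal1-/- cells, against 47.0 and 63.8 CPM in wild type cells. The groups overlapped, since knockout 2 had the lowest value of all. The log2 fold change was 0.38 (SE 0.41; edgeR adjusted p = 0.592), and its exons overlap 212 bases of Psmb9 on the other strand, whose reads could be counted here if strand was not used.

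**Figure D1:**
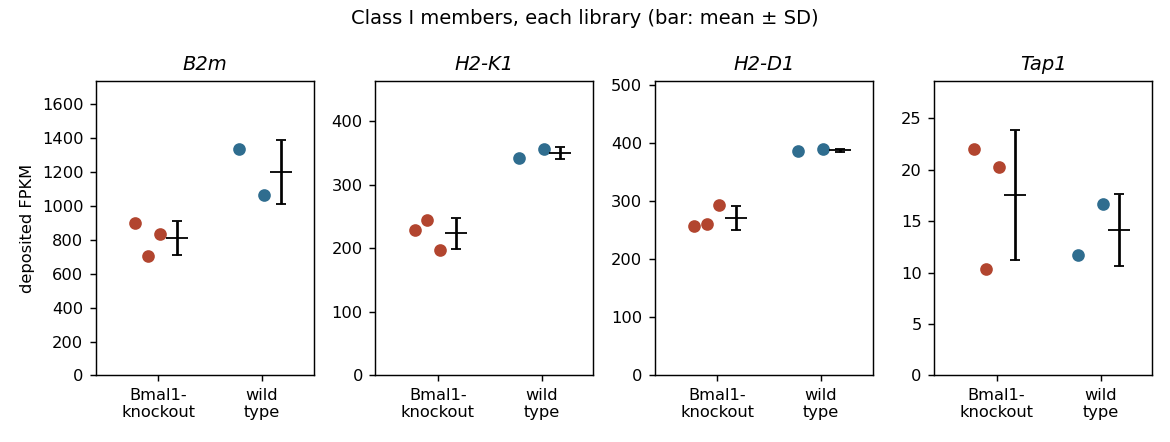
Deposited FPKM of the 4 class I members in each library, Bmal1-knockout (3 points) left of wild type (2 points), with the mean and SD beside the points; each panel has its own axis from 0. The knockout points of B2m, H2-K1 and H2-D1 lie below both wild type points, and those of Tap1 span them.

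Per length, B2m was the most abundant member. Its FPKM was 902, 703 and 832 in Bmal1-/- cells, against 1336 and 1067 in wild type cells, which ranked it between 28 and 38 among all listed genes in the knockout and at 23 and 26 in the wild type. H2-D1 followed, with 257, 260 and 294 FPKM in Bmal1-/- cells, against 386 and 389 FPKM in wild type cells. H2-K1 had 229, 244 and 197 FPKM in Bmal1-/- cells, against 343 and 356 FPKM in wild type cells, below H2-D1 in every library. The FPKM ratio of H2-D1 to H2-K1 was 1.12, 1.07 and 1.49 in Bmal1-/- cells, against 1.13 and 1.09 in wild type cells, so knockout 3 stood apart from the other 4 libraries. B2m exceeded the summed heavy chains 1.86, 1.39 and 1.70 times in Bmal1-/- cells, against 1.83 and 1.43 times in wild type cells. That balance of light to heavy chain overlapped between the genotypes. Tap1 was far lower, with 22.01, 10.4 and 20.3 FPKM in Bmal1-/- cells, against 11.7 and 16.6 FPKM in wild type cells. Set against the summed heavy chains it came to 4.53%, 2.05% and 4.13% in Bmal1-/- cells, against 1.604% and 2.23% in wild type cells, groups that overlapped through knockout 2.

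The sequences before the start sites of the class I members are shown because their shared letters can be read directly. RefSeq start-site sequences (GRCm38.p6, the assembly of mm10) were used for 7 of the 10 members: B2m, H2-K1, H2-D1, Tap1, H2-Aa, H2-Eb1 and H2-DMa. H2-Ab1, Cd74 and Ciita were left out of the search, so nothing is said here of their motifs. The 200 bases before the start are shown for the class I members, and for 2 class II chains as a contrast. Capitals mark matches on either strand to an interferon-response-like element (GAANNGAAA, or a longer core of GAAA, 2 bases of any kind and GAAA), an NF-kB-like element (GGG, 2 bases of any kind, TT, 1 base of any kind and CC), a CRE half-site (TGACG) and a CCAAT box, the motif of the factor NF-Y.
B2m (chr2:122147487-122147686, plus strand): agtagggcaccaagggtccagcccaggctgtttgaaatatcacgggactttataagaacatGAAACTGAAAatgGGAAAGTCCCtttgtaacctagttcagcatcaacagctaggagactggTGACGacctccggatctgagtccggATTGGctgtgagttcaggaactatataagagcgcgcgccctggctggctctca
H2-K1 (chr17:34000348-34000547, minus strand): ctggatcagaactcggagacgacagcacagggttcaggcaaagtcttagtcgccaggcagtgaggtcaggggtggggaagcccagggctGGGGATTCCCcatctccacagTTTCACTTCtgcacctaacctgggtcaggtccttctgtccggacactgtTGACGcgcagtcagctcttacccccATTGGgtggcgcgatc
H2-D1 (chr17:35262894-35263093, plus strand): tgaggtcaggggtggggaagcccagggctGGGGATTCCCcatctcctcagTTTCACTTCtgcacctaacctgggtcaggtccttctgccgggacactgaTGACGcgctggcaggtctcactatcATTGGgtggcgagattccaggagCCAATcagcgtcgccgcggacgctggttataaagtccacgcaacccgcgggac
Tap1 (chr17:34187356-34187555, plus strand): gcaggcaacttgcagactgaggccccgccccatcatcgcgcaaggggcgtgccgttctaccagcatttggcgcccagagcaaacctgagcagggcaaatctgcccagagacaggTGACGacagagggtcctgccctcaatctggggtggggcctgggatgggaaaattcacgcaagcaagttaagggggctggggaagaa
H2-Aa (chr17:34287824-34288023, minus strand): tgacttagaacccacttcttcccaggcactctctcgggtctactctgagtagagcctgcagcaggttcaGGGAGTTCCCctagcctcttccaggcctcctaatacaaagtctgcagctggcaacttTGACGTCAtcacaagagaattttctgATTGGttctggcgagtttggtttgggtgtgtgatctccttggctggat
H2-Eb1 (chr17:34305667-34305866, plus strand): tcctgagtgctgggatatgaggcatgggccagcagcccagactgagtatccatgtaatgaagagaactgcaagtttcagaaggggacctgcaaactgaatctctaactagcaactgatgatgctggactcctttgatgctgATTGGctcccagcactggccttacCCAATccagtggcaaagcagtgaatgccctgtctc

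The 250 bases before the start of H2-K1 and H2-D1, the heavy chain genes, were identical at 166 of 190 aligned positions (87.4%) when shifted by 60 bases. Each held, from far to near, the NF-kB-like element, GAANNGAAA, TGACG and CCAAT. B2m held the longer interferon-response core in place of GAANNGAAA, and the other 3 elements, all of which H2-Aa held too. Tap1 and the class II genes held fewer kinds. Tap1 had TGACG in the bases shown and CCAAT further upstream, H2-Aa had the NF-kB-like element, TGACG on both strands and CCAAT, and H2-Eb1 had CCAAT at 2 positions. H2-DMa had none of them in the window searched. That window, which ended at base 34122831, lay inside the span given for H2-DMa, and the window of H2-K1 lay inside that of H2-K1. Other start sites of these genes were not searched. Among the 250 bases before 27025 start sites, 1 per gene symbol, GAANNGAAA occurred in 6.34%, the longer core in 3.04%, the NF-kB-like element in 4.0%, TGACG in 17.9% and CCAAT in 34.5%. The E-box CACGTG, the site that BMAL1 and CLOCK bind, occurred in 6.05% of all and in none of the 7 members' windows. These are matches of letters only; no binding was measured.

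The heavy chain genes are members of a large family of related genes with some identical stretches, so their reads can be shared out between genes. Of all 50-base stretches of the longest coding transcript, 8.79% in H2-K1 and 14.3% in H2-D1 also occur in transcripts of other genes in GENCODE M21. For B2m that share was 0, and for Tap1 it was 0.861%, all with Tap2. H2-L, H2-Q8, H2-Q9 and H2-T9, which had counts here, have no entry under those symbols in GENCODE M21. Stretches shared with them may therefore be missing from the shares of H2-K1 and H2-D1. The expected counts of both heavy chain genes were fractional in every library (117.23 for H2-D1 and 119.78 for H2-K1 in knockout 1, for example). H2-L is the L-locus heavy chain gene of other mouse haplotypes, which the b haplotype of C57BL/6 lacks by textbook accounts. It was given 60.0, 74.0 and 78.9 counts in Bmal1-/- cells, against 122 and 107 counts in wild type cells. To remove the splitting, the 18 listed classical and class I-like H2 genes were added up to 1 feature, an alternative chosen after the data were seen. The sum was 2095, 2282 and 2258 CPM in Bmal1-/- cells, against 3251 and 3338 CPM in wild type cells, of which H2-K1 and H2-D1 made up 52.1% to 54.7%. The groups were well apart, with a log2 fold change of -0.58 (SE 0.11; edgeR adjusted p = 3.75e-06). It ranged from -0.61 to -0.53 with any 1 library left out. The sum reuses the counts of H2-K1, H2-D1 and H2-L, so it is no independent support for their calls.

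Among 21 other class I and class I-like molecules, 18 were listed and 8 tested; 2 were lower, none was higher and 6 did not pass, and 7 of the 8 had negative log2 fold changes. The median over these 8 was -0.79, beside 0.01 over all tested genes, of which 8.14% were called lower. H2-L had 288, 352 and 320 CPM in Bmal1-/- cells, against 573 and 569 CPM in wild type cells, a log2 fold change of -0.83 (SE 0.17; edgeR adjusted p = 2.84e-05), called under every alternative tried. H2-Q8, a gene of the Qa-2 antigen, had 52.8, 61.8 and 64.7 CPM in Bmal1-/- cells, against 108 and 144 CPM in wild type cells, -1.05 (edgeR adjusted p = 0.0262). Its call was lost without any single library other than knockout 3 (log2 fold changes from -1.27 to -0.85), and also with the replicate number as a block (-1.12, edgeR adjusted p = 0.0624). H2-Q7 had the opposite sign, at 0.90 (edgeR adjusted p = 0.5). It had 52.8, 47.5 and 16.2 CPM in Bmal1-/- cells, against 14.1 and 26.6 CPM in wild type cells. H2-Q7 and H2-Q8 both had fractional counts, so reads may be shared out between them. H2-T23, which encodes the nonclassical molecule Qa-1, was at -0.81 (edgeR adjusted p = 0.0592), and the T-region gene H2-T10 was at -0.05 (edgeR adjusted p = 0.925).

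Most genes that supply and load class I peptides did not pass the test. Of 12, all were listed and 9 tested; 2 were higher, 1 was lower and 6 did not pass, with a median of -0.13, beside the 8.19% higher and 8.14% lower among all tested genes. Psmb8, the interferon-inducible immunoproteasome subunit that cuts peptides for class I, had 43.2, 52.3 and 68.8 CPM in Bmal1-/- cells, against 113 and 122 CPM in wild type cells. Its log2 fold change was -1.07 (SE 0.37; edgeR adjusted p = 0.0268), a call that held with knockout 3 left out but with no other library left out (-0.92 and -1.03 without knockout 1 and 2, -1.15 and -1.02 without wild type 1 and 2); 498 of its exon bases lie opposite Gm20496. The chaperones of the loading complex, which also fold other secreted proteins, were on the other side. Pdia3, the disulfide isomerase ERp57, was higher by 0.48 on the log2 scale (edgeR adjusted p = 0.0263) and Calr, calreticulin, by 0.38 (edgeR adjusted p = 0.0399). Both calls were lost without knockout 3 (0.44 and 0.35), wild type 1 (0.49 and 0.42) or wild type 2 (0.45 and 0.33), and with the replicate number as a block (0.44 and 0.35, edgeR adjusted p = 0.0802 and 0.144). With DESeq2 neither passed (0.50 and 0.39). Tapbp, tapasin, which bridges TAP and the heavy chain, was at -0.47 (edgeR adjusted p = 0.184). Tap2, the partner of Tap1, was at 0.15 (edgeR adjusted p = 0.872), so both TAP subunits had positive values and neither passed.

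**Figure D2:**
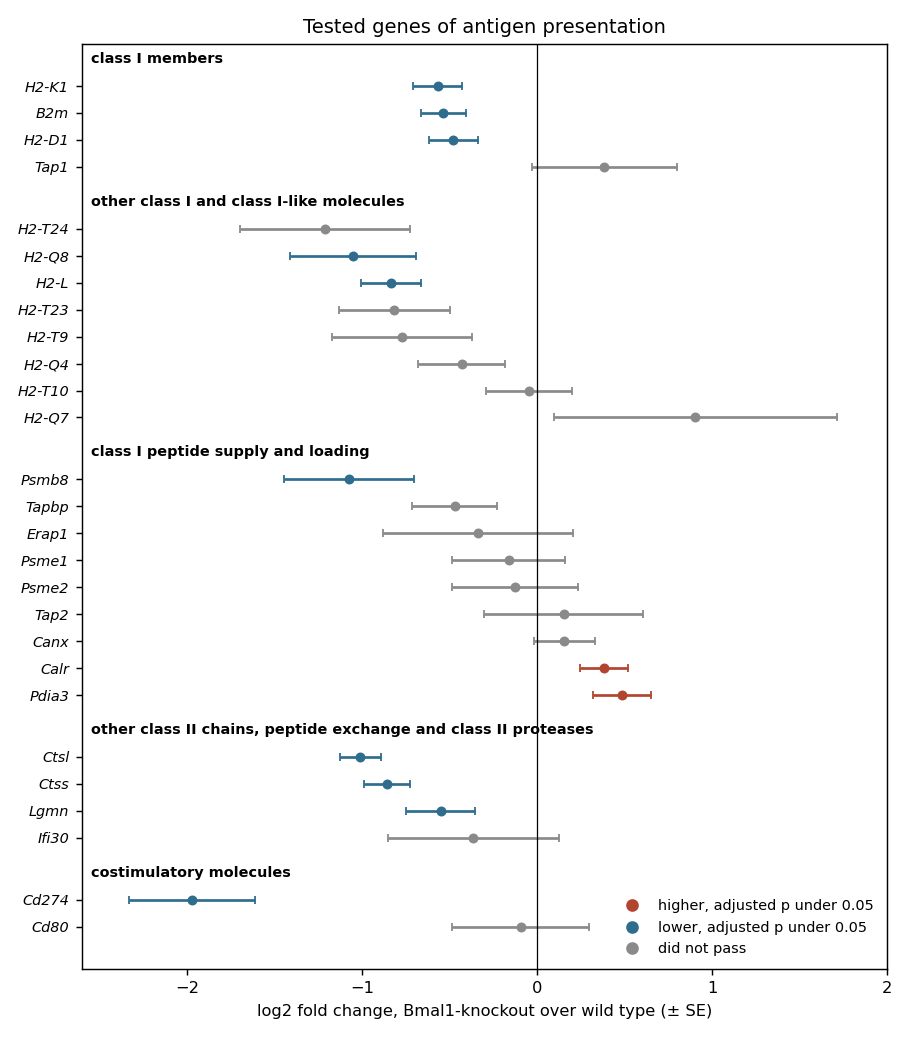
Log2 fold changes (Bmal1-knockout over wild type, with SE) of the tested genes of antigen presentation by list, without the regulators of transcription; colours give the call of edgeR's quasi-likelihood test at an adjusted p under 0.05. B2m, H2-K1 and H2-D1 lie between -0.57 and -0.48, and no class II chain is shown because none had enough counts.

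The class II members were hardly detected in any library. Together they had 8, 8 and 11 counts in Bmal1-/- cells, against 7 and 12 counts in wild type cells. The class I members had 425 to 547 counts in Bmal1-/- cells, against 544 and 670 counts in wild type cells. H2-Ab1 (Entrez gene 14961, chromosome 17, 34263227 to 34269418), the β chain of the class II molecule I-A, had 1, 3 and 5 counts in Bmal1-/- cells, against 4 and 4 in wild type cells. H2-Aa (Entrez gene 14960, chromosome 17, 34282744 to 34287823), the α chain that pairs with it, had a single count, in knockout 1. H2-Eb1 (Entrez gene 14969, chromosome 17, 34305867 to 34316674), the β chain of the class II molecule I-E, had 0 in all 5 libraries.

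The accessory genes of class II were as low. Cd74 (Entrez gene 16149, chromosome 18, 60803849 to 60812652), the invariant chain that guides class II molecules to endosomes, had 3, 4 and 0 counts in Bmal1-/- cells, against 1 and 1 in wild type cells. H2-DMa (Entrez gene 14998, chromosome 17, 34119693 to 34139101), part of the molecule that exchanges the invariant chain fragment for peptide, had 3, 1 and 4 counts in Bmal1-/- cells, against 2 and 6 in wild type cells. Ciita (Entrez gene 12265, chromosome 16, 10480014 to 10531064), the transactivator of class II genes, had 0, 0 and 2 counts in Bmal1-/- cells, against 0 and 1 in wild type cells. The genotypes overlapped for every class II member that was listed. Exons of H2-DMa lie opposite those of Brd2 over 360 bases and exons of Ciita opposite those of Dexi over 329 bases, so even these few counts may belong to the other strand.

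**Figure D3:**
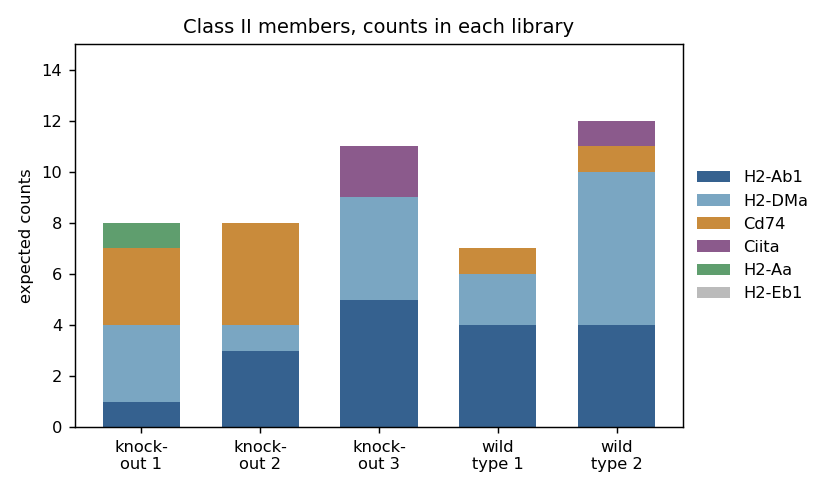
Expected counts of the 6 class II members, stacked by gene, in the 3 Bmal1-knockout libraries and then the 2 wild type libraries. No library exceeds 12 counts in all, and H2-Eb1 adds nothing anywhere.

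At these counts a genotype difference could be bounded only loosely. Summed counts gave knockout to wild type ratios of 0.678 for H2-Ab1 (95% exact interval 0.232 to 2.02), 0.602 for H2-DMa (0.197 to 1.84), 2.11 for Cd74 (0.401 to 20.8) and 1.20 for Ciita (0.0627 to 71.1). Of H2-Aa, the single count leaves the ratio bounded only from below (0.0154). None of the 5 passed an exact two-sided conditional binomial test of the summed counts, which covers counting error only (Benjamini-Hochberg adjusted over the 5, p from 0.830 to 1). The directions of Ciita and H2-DMa also turned when 1 library was left out. The intervals of H2-Ab1 and H2-DMa reach from a fall of several fold to a modest rise, and those of Cd74 and Ciita are wider still, so differences within them were not detectable at this depth.

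Set side by side, class II came to 1.63%, 1.89% and 1.57% of class I in summed FPKM in the knockout and to 0.9498% and 1.83% in the wild type. Knockout 1 and 3 lay between the wild type libraries and knockout 2 just above both. The log2 ratio of class II to class I averaged -5.89 ± 0.14 in the knockout (SD, n = 3) and -6.25 ± 0.67 in the wild type (SD, n = 2), a difference of 0.36 that is smaller than the spread between the wild type libraries. It was -0.11 without wild type 1 and 0.83 without wild type 2. Whether the 2 classes differ in their response to the genotype was not tested, since the class II counts decide the ratio and 3 against 2 libraries allow no exact permutation p under 0.1.

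Further class II chains were likewise near 0, while proteases that feed the class II route were abundant. Of 9 other class II chains, exchange factors and proteases, 6 were listed and 4 tested. Of these 4, 3 were lower, none was higher and 1 did not pass, with a median of -0.70. The share called lower among all tested genes was 8.14%. H2-Oa, H2-Ob and H2-Eb2 were not listed, H2-DMb1 had 2 counts in knockout 3 alone and H2-DMb2 1 count in wild type 2 alone. Ctss, cathepsin S, which cuts the invariant chain in antigen-presenting cells, had 634, 651 and 797 CPM in Bmal1-/- cells, against 1268 and 1260 CPM in wild type cells (log2 fold change -0.86, SE 0.13; edgeR adjusted p = 2.98e-09). Ctsl, cathepsin L, had 1143, 1003 and 991 CPM in Bmal1-/- cells, against 2208 and 1998 CPM in wild type cells (-1.01, SE 0.12; edgeR adjusted p = 7.19e-16), with 1742 exon bases opposite Gm47123. Both proteases also degrade other lysosomal cargo, and both are made by cells without class II. Lgmn, legumain, had a log2 fold change of -0.55 (edgeR adjusted p = 0.0360), a call lost without knockout 1 (-0.41), knockout 3 (-0.54) or wild type 1 (-0.30), and with the replicate number as a block (-0.54, edgeR adjusted p = 0.0727). Ifi30, the thiol reductase GILT, was at -0.36 (edgeR adjusted p = 0.679).

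Of 19 regulators of MHC transcription, 18 were listed and 10 tested. Of these 10, 2 were lower, none was higher and 8 did not pass, with a median of -0.10. The share called lower among all tested genes was 8.14%. Spi1, the macrophage and B cell factor PU.1, had 48.0, 23.8 and 36.4 CPM in Bmal1-/- cells, against 108 and 101 CPM in wild type cells (-1.52, SE 0.41; edgeR adjusted p = 0.00273), no longer past the threshold without wild type 1 (-1.49, edgeR adjusted p = 0.0572). Irf1, an activator of class I genes, was at -0.53 (edgeR adjusted p = 0.390). The interferon-γ receptor genes Ifngr1 and Ifngr2 were at 0.04 and -0.10 and did not pass, and Ifng itself was not listed. Nlrc5, the class I transactivator, had 9.97, 7.56 and 3 counts in Bmal1-/- cells, against 4 and 5 counts in wild type cells, too few to test.

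Of 7 costimulatory molecules, all listed, 2 were tested and 1 was lower, beside 8.14% lower among all tested genes. Cd274, the inhibitory ligand PD-L1 and an interferon-responsive gene, had 24.02, 66.6 and 36.4 CPM in Bmal1-/- cells, against 169 and 165 CPM in wild type cells, a log2 fold change of -1.97 (SE 0.36; edgeR adjusted p = 1.48e-06). It was called under every alternative tried, and 511 of its exon bases lie opposite AC119228.1. Cd80, a ligand of CD28, was at -0.09 (edgeR adjusted p = 0.909). Cd86 and Cd40, typical of activated antigen-presenting cells, had at most 4 and 2 counts in any library.

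B2m, H2-K1 and H2-D1, but not Tap1, were lower in the same libraries as the summed macrophage markers. Lyz2, the lysozyme of macrophages, fell by 0.67 on the log2 scale and Adgre1, which encodes F4/80, by 0.44. Adgre1 overlapped between the genotypes, with 769 CPM in knockout 1 and 739 CPM in wild type 2. Of the 12 tested macrophage markers 5 did not pass, among them Mrc1 at 0.18. The 4 class I members together came to 20.1%, 21.7% and 23.1% of the summed CPM of the 14 macrophage markers in the knockout and to 20.7% and 19.3% in the wild type, so this share overlapped between the genotypes. Lyz2 supplied most of the macrophage sum in every library, so the share is largely a ratio to Lyz2. The 4 pan-leukocyte markers summed to 449 to 528 CPM in the knockout and 611 to 672 CPM in the wild type, and none of them passed the test. The part of these cells in the class I result was not tested.

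Markers of other cell types, among them the class II-bearing dendritic cells and B cells, were partly detected. Of 9 dendritic cell markers Itgax, Flt3, Cd209a, Batf3 and Siglech were not listed. Zbtb46, the highest of the 4 that were listed, was at 980 to 1214 CPM in Bmal1-/- cells, against 1610 and 1973 CPM in wild type cells, and lower in the knockout (-0.70). Its counts were fractional in every library (203.81 in knockout 1, for example), so its reads may be shared out with other genes. Xcr1 and Clec9a, markers of a dendritic cell subset, were counted in all 5 libraries and did not pass the test (0.13 and -0.39, edgeR adjusted p = 0.870 and 0.725). Xcr1 had 62.5, 105 and 64.7 CPM in Bmal1-/- cells, against 61.1 and 79.7 CPM in wild type cells. Clec9a had 33.6, 19.0 and 48.6 CPM in Bmal1-/- cells, against 32.9 and 58.5 CPM in wild type cells. With Zbtb46, which supplied most of the sum, the dendritic cell list came to 1076 to 1327 CPM in the knockout and 1749 to 2072 CPM in the wild type. Of 5 B cell markers 3 were listed, Pax5 was not, and the list summed to 9.51 to 33.6 CPM in the knockout and 5.31 to 9.40 CPM in the wild type. None of the 3 had more than 3 counts in any library, too few to compare the genotypes. Of 7 T and NK cell markers Cd3e, Cd3d, Cd3g and Klrb1c were not listed, and the list summed to 32.4 to 33.6 CPM in Bmal1-/- cells, against 31.9 to 37.6 CPM in wild type cells. Of 6 neutrophil markers S100a9, Ly6g, Elane and Mpo were not listed, and the rest summed to 4.75 to 12.1 CPM in Bmal1-/- cells, against 14.1 to 15.9 CPM in wild type cells. Neither listed neutrophil marker had more than 3 counts in any library, again too few to compare the genotypes. The 5 endothelial markers summed to 128 to 178 CPM in Bmal1-/- cells, against 165 to 197 CPM in wild type cells, and the 2 tested did not pass.

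**Figure D4:**
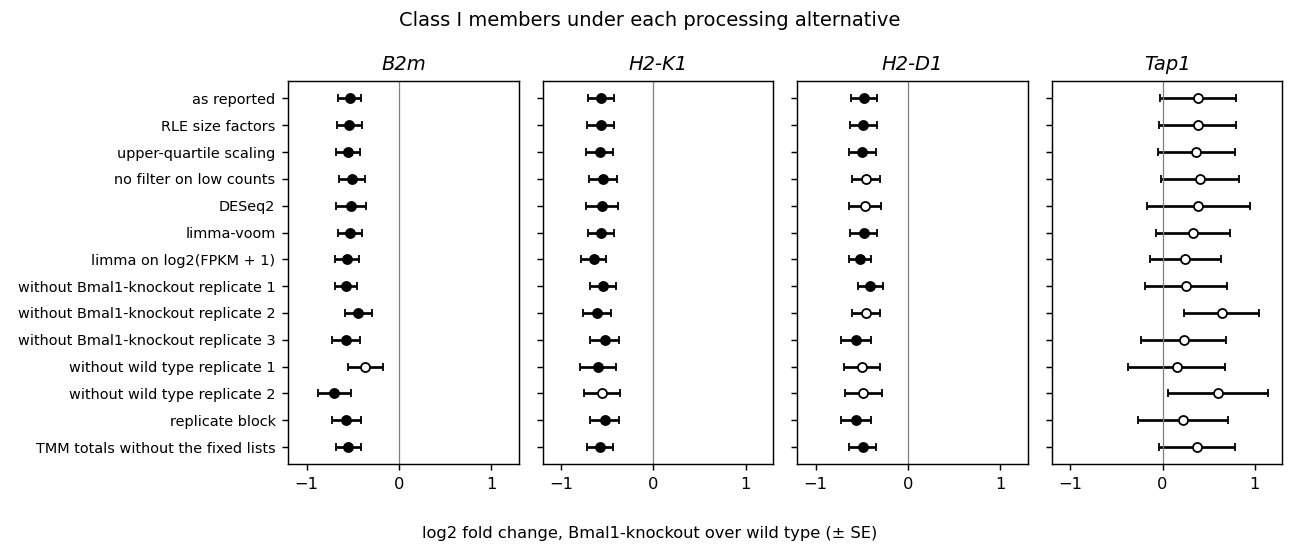
Log2 fold changes (with SE) of the 4 class I members as reported and under 13 alternatives; filled points have an adjusted p under 0.05. B2m, H2-K1 and H2-D1 keep negative values throughout, from -0.70 to -0.36, and H2-D1 has the most open points of these 3.

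The direction of B2m, H2-K1 and H2-D1 held under all 13 alternatives, and their calls depended most on the wild type, of which there were only 2 libraries. With 1 wild type library left out, 1 of the 3 calls remained in either case, H2-K1 without wild type 1 and B2m without wild type 2. The lone wild type library is then assumed to vary as the knockout libraries do.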

How the data were processed

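RNA was measured in 5 libraries. For every gene and library the authors deposited its expected count, FPKM and length, per the file headers; HISAT2, StringTie, Bowtie2, RSEM and the build mm10 are named without versions or roles, per the submitters' processing notes. An expected count shares out reads that fit several genes, and 93.8% to 94.2% of the deposited values were whole within 0.005. FPKM values were used as deposited by the authors. No source used here gives the strand setting. A gene missing from a table was taken as 0.

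Counts were rounded and tested by edgeR 4.0.16 under R 4.3.3 (genes kept by filterByExpr at minimum count 10 and total 15; TMM; robust quasi-likelihood; genotype as the term; Benjamini-Hochberg at 0.05 over all 3710 genes), after a check on simulated data. CPM uses the TMM-scaled totals of tested genes. SE was derived from the F statistic. Listed members too low to test were compared by exact conditional binomial tests of summed counts (scipy 1.17.1). Alternatives used RLE, upper-quartile scaling, no filter, DESeq2 1.42.0, limma 3.58.1 (voom, and log2(FPKM + 1)), each library left out and the replicate number as a block. The members and lists were chosen with earlier results of these data known. All members are named; from each pathway list, up to 3 called genes per direction by smallest adjusted p; from marker lists, the 2 highest by CPM where given, and defining markers at 0. Other list genes were picked after their values were seen, and 2 list genes are not reported here. Exons opposite other genes were taken from GENCODE M21.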

Additional observations from a re-analysis of the deposited data

How the results depend on the processing

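The precision is limited by 5 shallow libraries, 2 of them wild type; class II members had too few counts for edgeR and were compared by summed counts only. Over all tested genes, 304 were called higher and 302 lower; DESeq2 called 170 and 139, limma on log2(FPKM + 1) 177 and 174, and leaving out 1 library gave 144 to 323 and 146 to 287. Class I members called lower were 3, and 1 to 3 without 1 library. Of the other class I molecules 2 were lower, against 1 with no filter and with DESeq2, 3 with upper-quartile scaling and with voom, and 1 to 3 without 1 knockout library. In the peptide supply and loading list 2 were higher, against 1 with RLE, upper-quartile scaling, voom and TMM totals without the listed genes (the last added after the data were seen), and 0 with no filter, DESeq2, limma on log2(FPKM + 1) and the replicate block (0 to 2 without 1 library); 1 was lower, against 0 with no filter and DESeq2 (0 to 1 without 1 library). Class II route genes called lower were 3, against 2 with no filter, DESeq2, limma on log2(FPKM + 1) and the replicate block, and 2 to 3 without 1 library. The calls of H2-Q8, Psmb8, Pdia3, Calr and Lgmn were lost with no filter and with DESeq2, and those of Pdia3, Calr and Lgmn also with limma on log2(FPKM + 1). Of the regulators 2 were lower, 1 with limma on log2(FPKM + 1) and 0 to 2 without 1 library. The cause of these changes was not tested. The log2 ratio of class II to class I differed by 0.36, with -0.11 to 0.83 without 1 library, and by -0.04 to 0.32 under the other forms of the ratio. Exact ratios without 1 library ran from 0.479 to 0.876 for H2-Ab1, 0.377 to 1.28 for H2-DMa and 1.32 to 3.35 for Cd74; for Ciita the finite ones from 0 without knockout 3 to 1.76 without knockout 2, with 0.565 without wild type 1. No ratio could be formed where wild type had no count (H2-Aa throughout, and Ciita without wild type 2).

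The labels do not say whether samples with the same replicate number share an animal, culture or batch, and they were not treated as pairs. Their deviations from the group means correlated at -0.01 for number 1 and 0.03 for number 2. With only 2 wild type libraries, the deviations of one mirror those of the other, so these values cannot decide whether the samples are paired. With the replicate number as a block, 229 genes were called higher and 212 lower, and the log2 fold changes were -0.57 for B2m, -0.53 for H2-K1, -0.56 for H2-D1 and 0.22 for Tap1. The calls of those 4 did not change under the block.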
